A study of Homo sapiens with 6 samples.

Results

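The genes described here encode the complexes that methylate lysine 4 of histone H3 (H3K4), and they were put together around RBBP5, a subunit that all of these complexes share. The set holds RBBP5, WDR5, ASH2L, DPY30, MEN1, KMT2A, KMT2D, SETD1A, SETD1B and CXXC1. These are 10 of the 20046 genes named on the array, and every probe with one of their symbols in the platform annotation was taken on its own, which made 16 of 47319 probes. Of the 16 probes, 12 passed the detection filter (detection p under 0.05 on at least 2 arrays), and these 12 report 9 of the 10 genes. The set was chosen on the signal of RBBP5, already known to be low with miR-552-3p against control. Its values with that mimic are therefore given as a description with no p-value, and the other members were chosen with the same results in view.

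The cells were A549, an established line of human lung adenocarcinoma, grown in RPMI-1640 with serum and harvested 24 h after transfection by Lipofectamine RNAiMAX. The groups received a synthetic mimic of miR-552-3p, a synthetic mimic of miR-608, or a negative control mimic. Each group had 2 arrays, so there were 6 arrays in all, and all groups shared the cell line, the reagent and the time. Whether the 2 arrays of each group stem from separate transfections is not stated. The p-values weigh a difference against the spread between these arrays, drawn towards that of all probes in the fit. This spread may be only technical.

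Methylation of H3K4 marks active promoters and enhancers. The methyltransferases that write it, the KMT2 and SETD1 proteins, are weak alone and work on a shared core of WDR5, RBBP5, ASH2L and DPY30. Further subunits belong to particular complexes, such as menin (MEN1) with KMT2A and the CpG-binding protein CXXC1 with SETD1A and SETD1B. A microRNA mimic guides Argonaute proteins to messenger RNAs that pair with its seed, bases 2 to 8 from the 5′ end, and such messages are degraded or less translated.

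The mature sequences of the transfected microRNAs, from the RefSeq table of GRCh38.p14, are shown because they are the only designed difference between the groups, with the seed in capitals.
hsa-miR-552-3p: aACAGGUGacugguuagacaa
hsa-miR-608: aGGGGUGGuguugggacagcuccgu
The 21 bases of miR-552-3p lie on the minus strand at chr1:34669614-34669634, and the 25 bases of miR-608 on the plus strand at chr10:100975000-100975024. The seeds differ at 5 of 7 positions. Of the 2370 mature human microRNAs in the table, 0 others share the seed of miR-552-3p and 1, hsa-miR-4651, shares that of miR-608. Read as DNA, the letters complementary to the seeds are CACCTGT for miR-552-3p and CCACCCC for miR-608. Whether the transcripts of the members hold these letters was not analysed here.

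The arrays were alike in brightness, with a median signal of 181.7 to 200.7 and 18550 to 19758 probes detected per array. Across probes, which are not independent replicates, the log2 values of arrays of the same group correlated at 0.993 to 0.994 and those of different groups at 0.968 to 0.978. Of 6 genes typical of A549 cells, 5 were detected on all arrays, among them KRT8, KRT18, KRT19, AKR1B10 and ALDH3A1, and AKR1C1 was detected on none. Of 5 measured markers of other cell types, PTPRC, CD3E, PECAM1 and COL3A1 were detected on none, while CD14 was detected on all 6. Unless called deposited signals, the values below are log2 signals after background correction and quantile normalization, and each difference is given with its SE from a limma fit over all 20749 kept probes, with 2 arrays per group. Adjusted p is by Benjamini-Hochberg over those probes, a call is an adjusted p under 0.05, and up to 15 alternative settings were tried, 6 of which left out 1 array each.

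In the core of the complexes, RBBP5 and ASH2L were low with miR-552-3p, while the brightest probes of WDR5 and DPY30 did not pass the test. The RBBP5 probe (ILMN_1696532) had deposited signals of 246.4 and 237.8 on the miR-552-3p arrays, 706.0 and 675.9 on the miR-608 arrays, and 803.7 and 797.7 on the control arrays. After background correction and normalization the log2 signals were 6.82 and 6.73 on miR-552-3p arrays, 9.10 and 9.13 on miR-608 arrays and 9.28 and 9.19 on control arrays. The miR-552-3p arrays thus stood far below all others, and the probe was still detected there, at a detection p of 0.0026 on both arrays. RBBP5 protein bridges WDR5 and ASH2L and touches the catalytic domain. Its log2 difference between miR-552-3p and control was -2.46 ± 0.08 (SE, 2 arrays per group), which corresponds to 18.2% of the control level. Of the 20749 probes kept, 9 had a lower value in that comparison. The size depended on the background step, and was -1.56 with no background correction or with the authors' log2 values and -1.73 with normexp without the negative controls, at an offset of 50. In a bulk measurement, fewer cells with the transcript and less transcript per cell cannot be told apart.

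With miR-608, RBBP5 did not pass the test. The log2 difference from control was -0.12 ± 0.08 (adjusted p = 0.317), with a 95% interval of -0.33 to 0.08, although both miR-608 arrays lay below both control arrays. The arrays of these groups did not overlap, in either direction, at 65.7% of all kept probes.

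ASH2L, whose protein pairs with RBBP5 to stimulate methyl transfer, went opposite ways with the mimics. The probe (ILMN_1666933) read 10.99 and 10.91 log2 units on miR-552-3p arrays, 12.25 and 12.19 on miR-608 arrays and 11.82 and 11.82 on control arrays. The arrays of any 2 groups did not overlap, as was so for 67% of all kept probes between miR-552-3p and control, 65.7% between miR-608 and control and 69.3% between the mimics. ASH2L fell by 0.87 ± 0.08 on the log2 scale with miR-552-3p, to 54.8% of the control (adjusted p = 0.00213), and passed under each of the 15 alternative settings. With miR-608 it rose by 0.41 ± 0.08, or 1.32-fold (adjusted p = 0.0181). That rise did not pass without miR-608 replicate 1 (adjusted p = 0.0853), miR-608 replicate 2 (0.064), control replicate 1 (0.0796) or control replicate 2 (0.078), nor with no detection filter (0.0621). In the direct comparison the mimics differed at ASH2L by -1.27 ± 0.08 (miR-552-3p minus miR-608, adjusted p = 0.000701), again under all 15 settings.

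WDR5, the scaffold that holds the methyltransferase to the core, had 3 probes, which did not behave alike. The brightest (ILMN_1728626) read 10.49 and 10.54 on miR-552-3p arrays, 10.79 and 10.78 on miR-608 arrays and 10.57 and 10.67 on control arrays. Against control it was at -0.11 ± 0.08 with miR-552-3p (adjusted p = 0.358) and 0.16 ± 0.08 with miR-608 (adjusted p = 0.185), and neither passed. A dimmer WDR5 probe (ILMN_1737087) read 7.45 and 7.06 on miR-552-3p arrays, 6.0 and 6.62 on miR-608 arrays and 6.05 and 6.59 on control arrays. It was not detected on 1 miR-608 array and 1 control array, and its difference of 0.93 ± 0.29 between miR-552-3p and control did not pass (adjusted p = 0.0674). It did pass with no background correction (0.43, adjusted p = 0.0282), normexp at an offset of 50 (0.51, adjusted p = 0.0402), the authors' values (0.44, adjusted p = 0.0142) and an intensity trend (0.93, adjusted p = 0.0141). The third WDR5 probe was detected on no array.

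DPY30, the small subunit that binds ASH2L, had 2 probes that disagreed. The bright one (ILMN_2131880) read 13.31 and 13.28 on miR-552-3p arrays, 13.60 and 13.55 on miR-608 arrays and 13.33 and 13.40 on control arrays. Its differences from control were -0.07 ± 0.08 with miR-552-3p (adjusted p = 0.516) and 0.21 ± 0.08 with miR-608 (adjusted p = 0.1). The second of these passed with an intensity trend in the fit (adjusted p = 0.00898) or on the authors' values (adjusted p = 0.0417). The dim DPY30 probe (ILMN_2131882) read 8.51 and 8.33 on miR-552-3p arrays, 7.15 and 7.71 on miR-608 arrays and 7.52 and 7.59 on control arrays. It was higher with miR-552-3p than in the control by 0.86 ± 0.20 (adjusted p = 0.027), a call that ended when either miR-552-3p array or either control array was dropped (adjusted p of 0.0753 to 0.116). Which transcripts the probes of a gene report was not analysed here.

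**Figure D1:**
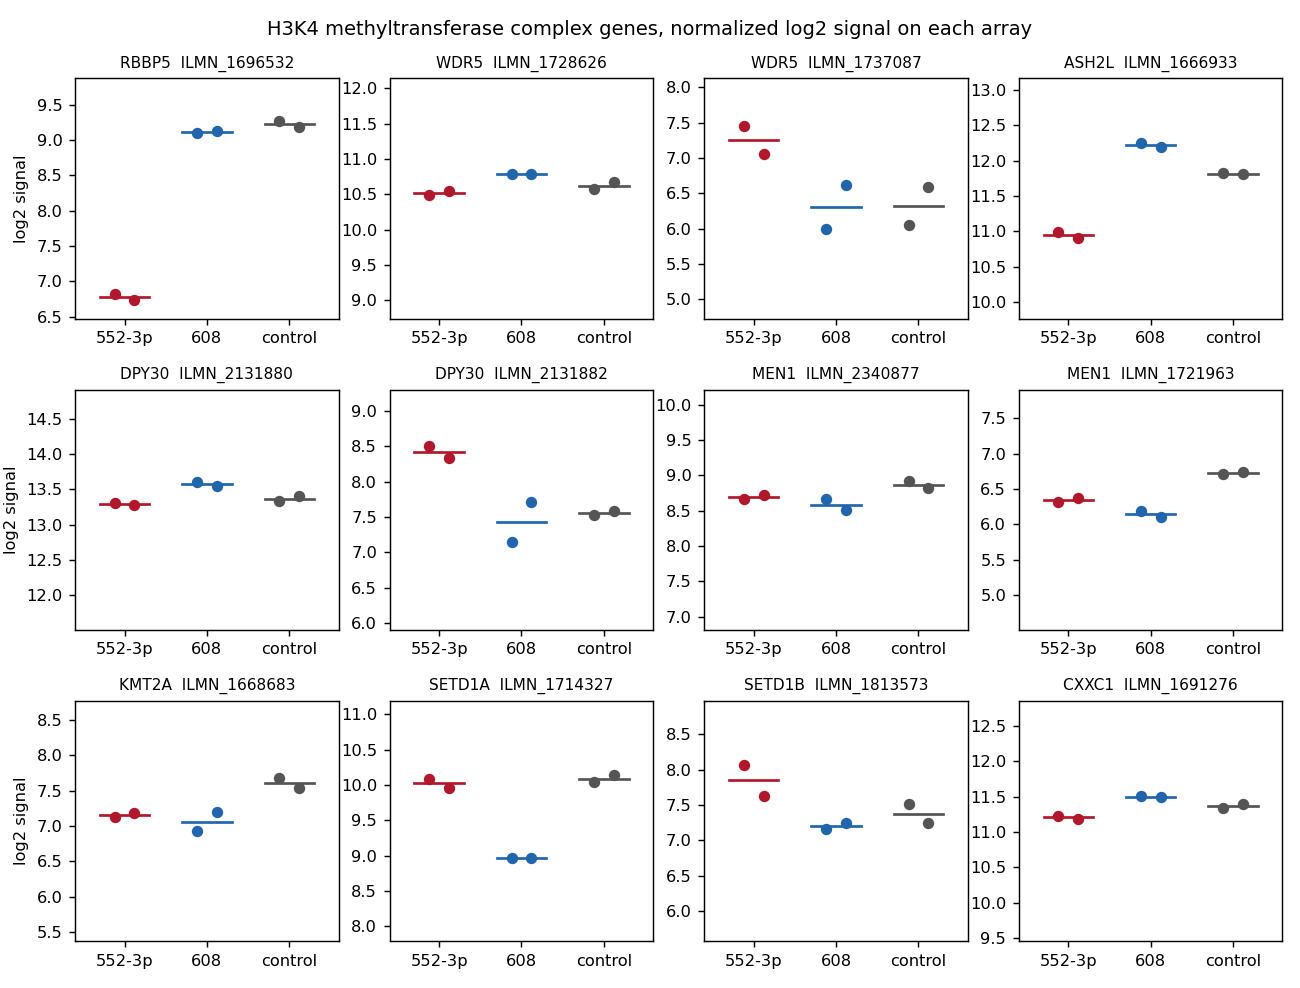
Normalized log2 signal (y axis) of each of the 12 kept probes on every array, grouped as miR-552-3p, miR-608 and control (x axis); points are single arrays, bars are group means, and all panels span the same number of log2 units. RBBP5 lies at 6.82 and 6.73 with miR-552-3p, against 9.28 and 9.19 in the control, ASH2L is highest with miR-608 and lowest with miR-552-3p, and SETD1A is low with miR-608, at 8.97 and 8.96.

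Among the catalytic subunits, SETD1A fell with miR-608 and KMT2A fell with both mimics. SETD1A is one of the enzymes that place most of the trimethylation at promoters. Its probe (ILMN_1714327) read 10.08 and 9.96 on miR-552-3p arrays, 8.97 and 8.96 on miR-608 arrays and 10.04 and 10.14 on control arrays, so the miR-608 arrays stood alone. Among all kept probes, 65.7% had no overlap between miR-608 and control and 69.3% between the mimics. The deposited signals were 1141 and 1093 on miR-552-3p arrays, 655.9 and 617.3 on miR-608 arrays and 1245 and 1384 on control arrays. SETD1A fell by 1.12 ± 0.09 with miR-608, to 46.0% of the control (adjusted p = 0.00201), under all 15 settings. With miR-552-3p it was at -0.06 ± 0.09 (adjusted p = 0.618), with a 95% interval of -0.28 to 0.15. The direct difference, miR-552-3p minus miR-608, was 1.05 ± 0.09 (adjusted p = 0.00123) and passed under all 15 settings.

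SETD1B, the close relative of SETD1A, had a dim probe (ILMN_1813573) that read 8.07 and 7.63 on miR-552-3p arrays, 7.16 and 7.24 on miR-608 arrays and 7.51 and 7.24 on control arrays. Neither mimic passed against control, at 0.47 ± 0.18 for miR-552-3p (adjusted p = 0.106) and -0.18 ± 0.18 for miR-608 (adjusted p = 0.505). The first passed with the authors' log2 values (0.28, adjusted p = 0.0494). The probe was higher with miR-552-3p than with miR-608 by 0.65 ± 0.18 (adjusted p = 0.0403), which did not pass when miR-552-3p replicate 1, either miR-608 array or either control array was omitted (adjusted p of 0.0572 to 0.146).

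KMT2A, a methyltransferase known for its gene fusions in leukaemia, read 7.13 and 7.18 on miR-552-3p arrays, 6.93 and 7.20 on miR-608 arrays and 7.68 and 7.53 on control arrays (ILMN_1668683). All 4 arrays with miR-552-3p or miR-608 lay below both control arrays. A lack of overlap with control, in either direction, was common, at 67% of all kept probes for miR-552-3p and 65.7% for miR-608. The share of probes below control with both mimics was not analysed here. KMT2A fell by 0.45 ± 0.12 with miR-552-3p (adjusted p = 0.0421) and by 0.54 ± 0.12 with miR-608 (adjusted p = 0.0264). The first of these calls did not pass without either miR-552-3p array or either control array (adjusted p of 0.0909 to 0.168), and the second did not pass without either miR-552-3p array, miR-608 replicate 1 or either control array (adjusted p of 0.0526 to 0.118). The mimics did not differ detectably from each other at KMT2A, at 0.10 ± 0.12 (adjusted p = 0.576), with a 95% interval of -0.21 to 0.40. The KMT2D probe (ILMN_1802743), for the methyltransferase of enhancers, was detected on no array, with a detection p of at least 0.799, so no comparison was made for it.

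Of the subunits that belong to particular complexes, menin was lower with both mimics in 1 of its probes. The brighter MEN1 probe (ILMN_2340877) read 8.66 and 8.72 on miR-552-3p arrays, 8.66 and 8.51 on miR-608 arrays and 8.91 and 8.82 on control arrays. It was at -0.18 ± 0.09 with miR-552-3p (adjusted p = 0.209) and -0.28 ± 0.09 with miR-608 (adjusted p = 0.0773), and the second passed with the authors' values (adjusted p = 0.0499) and with detection on all arrays (adjusted p = 0.0406). The dimmer MEN1 probe (ILMN_1721963) read 6.31 and 6.37 on miR-552-3p arrays, 6.19 and 6.10 on miR-608 arrays and 6.71 and 6.74 on control arrays. It was not detected on either miR-608 array, so its level there is a bound: it was at least 1.41-fold lower with miR-608 (means of 6.15 with miR-608 and 6.73 in the control, adjusted p = 0.00724), a call that ended with an intensity trend (adjusted p = 0.0731). With miR-552-3p it fell by 0.38 ± 0.08 (adjusted p = 0.0197), but did not pass in 9 of 13 alternative settings, leaving out either miR-552-3p array or either control array among them (adjusted p of 0.0662 to 0.0937). The other 2 MEN1 probes were detected on no array.

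CXXC1, which brings the SETD1 complexes to unmethylated CpG islands, showed small differences. Its probe (ILMN_1691276) read 11.23 and 11.19 on miR-552-3p arrays, 11.51 and 11.50 on miR-608 arrays and 11.34 and 11.39 on control arrays. Neither difference from control passed, at -0.16 ± 0.07 for miR-552-3p (adjusted p = 0.172) and 0.14 ± 0.07 for miR-608 (adjusted p = 0.231).

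**Figure D2:**
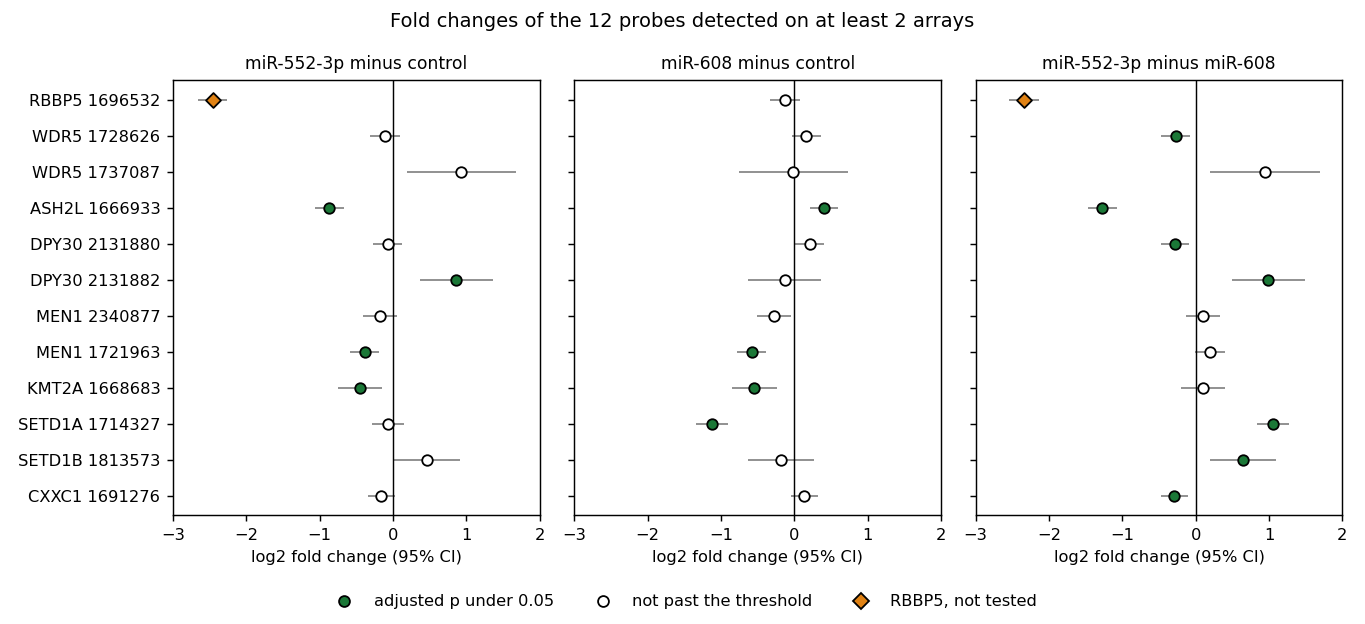
Log2 fold changes (x axis) with 95% intervals from limma for the 12 kept probes (rows, gene and probe number) in the 3 comparisons; filled circles passed an adjusted p of 0.05, open circles did not, and the diamond marks RBBP5 where it was not tested. The dim MEN1 probe is drawn at its fitted value although it was not detected with miR-608. RBBP5 stands at -2.46 for miR-552-3p and at -0.12 for miR-608, SETD1A at -0.06 and -1.12, and the 2 DPY30 probes lie on opposite sides of 0 with miR-552-3p.

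With miR-552-3p, 4 of the 11 kept probes other than RBBP5 were called, 1 higher and 3 lower (36.4%), where 30.9% of all 20749 kept probes were called, 14.7% higher and 16.1% lower; RBBP5 chose the set on that comparison, so nothing is read from the count. With miR-608, 4 of the 12 probes were called, 1 higher and 3 lower (33.3%), where 28.4% of all were called, 14% higher and 14.4% lower, so the share was near that of probes in general. The counts fell to as few as 1 for miR-552-3p against control and 2 for miR-608 against control when single arrays were left out. The median log2 difference of these probes was -0.11 for miR-552-3p, against 0.03 over all kept probes, and -0.12 for miR-608, against 0.02. The probes that passed the detection filter include the dim WDR5 and MEN1 probes, each detected on only 4 arrays.

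The mimics differed directly from each other at 7 of the 11 kept probes other than RBBP5, 3 higher and 4 lower with miR-552-3p (63.6%), where 36.5% of all kept probes were called, 18.2% higher and 18.3% lower. Higher with miR-552-3p were SETD1A, SETD1B and the dim DPY30 probe, and lower were ASH2L, CXXC1 and the bright probes of WDR5 and DPY30. The last 3 were small differences, at -0.29 ± 0.07 for CXXC1 (adjusted p = 0.0314), -0.27 ± 0.08 for WDR5 (adjusted p = 0.0473) and -0.28 ± 0.08 for DPY30 (adjusted p = 0.0384), and all 3 calls ended whichever of the 6 arrays was omitted (adjusted p of 0.0554 to 0.174). The count was 2 or 3 when any 1 array was left out, 4 with the replicate number as a block, and 3 with only the groups compared. Of all 20749 kept probes, 6746 were called with the block and 6714 with only the groups compared. The members were chosen with these results in view and the count depended on the setting, so nothing is read from it. RBBP5 was at -2.34 ± 0.08 in this comparison and was not tested.

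**Figure D3:**
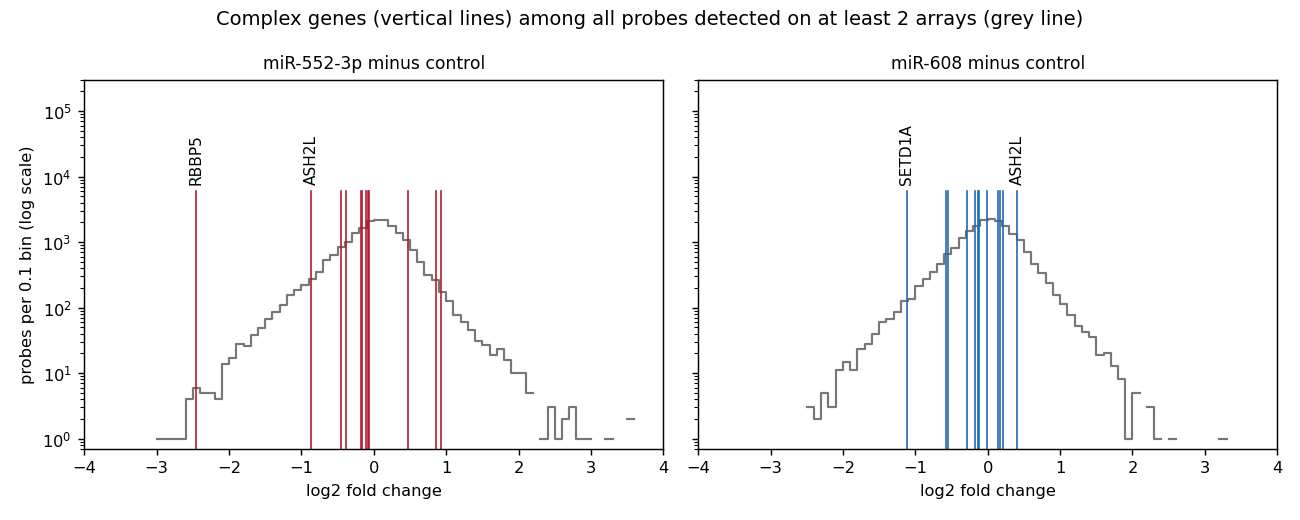
Number of kept probes (y axis, log scale) by log2 fold change in bins of 0.1 (x axis, grey line) for miR-552-3p against control and miR-608 against control, with a vertical line for each of the 12 kept probes of the set. RBBP5 lies in the far lower tail with miR-552-3p, at -2.46, with 9 probes lower, and SETD1A is the lowest of the set with miR-608, at -1.12.

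Other genes of H3K4 methylation were taken from 6 lists of partners, related enzymes, erasers, readers, upstream factors and target genes, each gene read by its brightest kept probe. Of the 56 genes listed, 45 were measured. With miR-552-3p 16 of these were called, 4 higher and 12 lower (35.6%), where 35.6% of all 11817 named genes with a kept probe were called, 15.6% higher and 20% lower. With miR-608 16 were called, 7 higher and 9 lower (35.6%), where 33.1% of all were called, 16.3% higher and 16.8% lower. Both shares were near those of genes in general. Between the mimics 22 were called, 11 higher and 11 lower with miR-552-3p (48.9%), where 42.3% of all were called, 19.7% higher and 22.7% lower. SETD7, kept only through the miR-552-3p arrays, is among the higher genes with miR-552-3p against control and between the mimics. Those counts therefore rest partly on the detection filter.

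Of 9 measured subunits that belong to particular complexes, 2 rose and 5 fell with miR-552-3p, and 1 rose and 3 fell with miR-608. Of all named genes with a kept probe, 15.6% were called higher and 20% lower with miR-552-3p. With miR-608 the shares were 16.3% and 16.8%. The list is short, and nothing is read from its counts. PAGR1, which works with PAXIP1 in the KMT2C and KMT2D complexes, read 10.10 and 10.10 on miR-552-3p arrays, 11.69 and 11.72 on miR-608 arrays and 11.89 and 12.03 on control arrays. It fell by 1.86 ± 0.08 with miR-552-3p (adjusted p = 0.000997), its other probe fell by 1.42 ± 0.09 (adjusted p = 0.00116), and with miR-608 it was at -0.26 ± 0.08 (adjusted p = 0.0725), which passed in some settings, such as the authors' values (adjusted p = 0.0237). WDR82, the subunit that ties the SETD1 complexes to RNA polymerase II, read 10.73 and 10.77 on miR-552-3p arrays, 10.14 and 10.36 on miR-608 arrays and 11.59 and 11.51 on control arrays. WDR82 fell by 0.81 ± 0.10 with miR-552-3p (adjusted p = 0.0052) and by 1.30 ± 0.10 with miR-608 (adjusted p = 0.0022). HCFC1, a cell cycle cofactor found with SETD1 and KMT2 enzymes, fell by 0.43 ± 0.07 with miR-552-3p (adjusted p = 0.0102) and by 1.16 ± 0.07 with miR-608 (adjusted p = 0.00163). Its fall with miR-552-3p did not pass without either miR-552-3p array or either control array (adjusted p of 0.0512 to 0.0559). NCOA6, a coactivator of the KMT2C and KMT2D complexes, fell by 0.39 ± 0.08 with miR-552-3p (adjusted p = 0.0224) and by 0.46 ± 0.08 with miR-608 (adjusted p = 0.0163). It did not pass with miR-552-3p when miR-552-3p replicate 2 or a control array was omitted (adjusted p of 0.0828 to 0.0974), or with miR-608 when any miR-608 or control array was (adjusted p of 0.068 to 0.0789). KDM6A, the H3K27 demethylase of the same complexes, rose by 0.38 ± 0.09 with miR-552-3p (adjusted p = 0.0306) and by 0.53 ± 0.09 with miR-608 (adjusted p = 0.0128). The rise with miR-552-3p was lost without any one of the miR-552-3p and control arrays (adjusted p of 0.0857 to 0.128). The rise with miR-608 did not pass without miR-608 replicate 1 or either control array (adjusted p of 0.0599 to 0.065).

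Of 4 further methyltransferases, 1 rose with miR-552-3p, and 1 rose and 1 fell with miR-608. Over all named genes, 15.6% rose and 20% fell with miR-552-3p, and 16.3% rose and 16.8% fell with miR-608. Nothing is read from counts over so few genes. KMT2B, the closest relative of KMT2A, fell by 0.83 ± 0.08 with miR-608 (adjusted p = 0.00327) and was at 0.08 ± 0.08 with miR-552-3p (adjusted p = 0.504). The difference between the mimics at KMT2B was 0.91 ± 0.08 (miR-552-3p minus miR-608, adjusted p = 0.00148). SETD7, which adds a single methyl group, was not detected in the control and was at least 1.11-fold higher with miR-552-3p (means of 6.34 with miR-552-3p and 5.48 in the control). SETD7 passed the detection filter only through the miR-552-3p arrays, where it is high. The filter thus favoured a difference in that direction, and its place among the higher genes supports nothing. KMT2C, with 4 kept probes, did not pass with either mimic on its brightest probe, at -0.18 ± 0.16 with miR-552-3p (adjusted p = 0.461) and 0.15 ± 0.16 with miR-608 (adjusted p = 0.551). With miR-552-3p, ILMN_1736165 was at -0.01 and ILMN_2408877 at -0.28 (adjusted p = 0.981 and 0.305). With miR-608 they were at 0.35 and 0.23 (adjusted p = 0.263 and 0.399). The remaining probe (ILMN_1698472) was detected only on miR-552-3p arrays. It was at least 1.2-fold higher there than in the control, given with no test. SMYD3 rose by 0.44 ± 0.10 with miR-608 (adjusted p = 0.0289), but was lost without either miR-608 or either control array (adjusted p of 0.0837 to 0.12). Of 4 measured H3K4 demethylases 0 were called with miR-552-3p and 1, KDM1B, was lower with miR-608, at -0.43 ± 0.11 (adjusted p = 0.0431), and that call ended in 10 of 14 alternative settings, leaving out either miR-608 or either control array among them (adjusted p of 0.0525 to 0.171 over the 10).

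Readers and upstream factors went both ways. Of 14 proteins that bind methylated H3K4, 3 fell and 0 rose with miR-552-3p, and 2 fell and 1 rose with miR-608. Over all named genes, 20% fell and 15.6% rose with miR-552-3p, and 16.8% fell and 16.3% rose with miR-608. PHF13 fell by 0.65 ± 0.09 with miR-552-3p (adjusted p = 0.00655). PYGO2, a coactivator of Wnt signalling, fell by 1.44 ± 0.20 with miR-608 (adjusted p = 0.008), a call that ended when control replicate 2 was omitted (adjusted p = 0.0502). With miR-552-3p PYGO2 was at -0.69 ± 0.20 (adjusted p = 0.0568), and it passed there under several alternative settings, the authors' values among them (-0.41, adjusted p = 0.00824). BPTF, the large subunit of a chromatin remodeller, fell by 0.52 ± 0.11 with miR-552-3p (adjusted p = 0.021). Its dimmer probe, not detected on the miR-552-3p arrays, was at least 1.53-fold lower there (means of 5.85 with miR-552-3p and 6.82 in the control). The call of the brighter probe ended without miR-552-3p replicate 1 or either control array (adjusted p of 0.0725 to 0.0975). With miR-608 the BPTF probes disagreed: the brighter was at 0.18 ± 0.11 (adjusted p = 0.266), and the dimmer, undetected there too, was at least 1.5-fold lower (means of 6.0 with miR-608 and 6.82 in the control). The dimmer probe was kept only through the control arrays, where it is high, so its differences are given with no test. Ubiquitin on histone H2B is placed by RNF20 and RNF40 and promotes H3K4 methylation. RNF20 fell by 0.68 ± 0.09 with miR-552-3p (adjusted p = 0.00628), and RNF40 fell by 0.84 ± 0.11 with miR-608 (adjusted p = 0.0063). With the other mimic RNF20 was at -0.28 ± 0.09 (adjusted p = 0.083, and 0.0264 on the authors' values) and RNF40 at -0.15 ± 0.11 (adjusted p = 0.342). Of the 9 measured genes of that list, 1 rose and 1 fell with miR-552-3p and 2 rose and 1 fell with miR-608. The same shares over all named genes stand beside these counts, and nothing is read from the counts of either list.

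Genes known elsewhere to depend on menin or KMT2A were measured for 5 of 11 listed. The other 6 (HOXA4, HOXA5, HOXA7, HOXA9, HOXA10 and CDKN2C) had no symbol in the annotation used and were not analysed here. The counts therefore do not speak for the whole list. With miR-552-3p 3 fell and 0 rose, and with miR-608 1 fell and 2 rose. Over all named genes, 20% fell and 15.6% rose with miR-552-3p, and 16.8% fell and 16.3% rose with miR-608. Nothing is read from counts over 5 genes. CDKN1B, the cell cycle inhibitor p27, read 9.92 and 9.82 on miR-552-3p arrays, 10.98 and 10.98 on miR-608 arrays and 10.28 and 10.29 on control arrays. It fell by 0.41 ± 0.08 with miR-552-3p (adjusted p = 0.0154) and rose by 0.69 ± 0.08 with miR-608 (adjusted p = 0.00453), and its other probe did the same, at -0.67 and 0.72. Its fall was lost without miR-552-3p replicate 2 or either control array (adjusted p of 0.0687 to 0.0755). MEIS1, a homeobox cofactor, fell by 0.57 ± 0.09 with miR-552-3p (adjusted p = 0.00967) and by 0.45 ± 0.09 with miR-608 (adjusted p = 0.0207). The first of these was lost without miR-552-3p replicate 1 or control replicate 1 (adjusted p of 0.0521 to 0.0555), and the second without either miR-608 or either control array (adjusted p of 0.0527 to 0.0945).

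**Figure D4:**
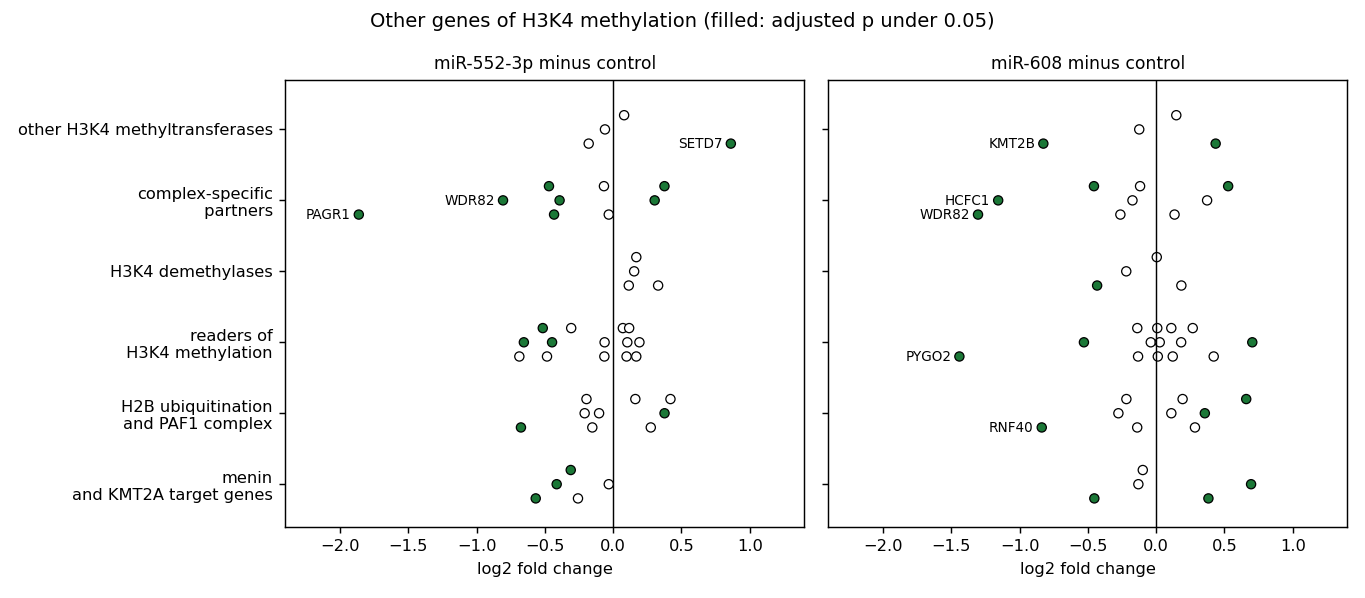
Log2 fold changes (x axis) of 45 other genes of H3K4 methylation in 6 lists (rows) for miR-552-3p against control and miR-608 against control, one point per gene read by its brightest kept probe, filled where the adjusted p was under 0.05; names mark called genes beyond 0.8 in size, and SETD7, not detected in the control, is drawn at its fitted value. PAGR1 is the lowest with miR-552-3p, at -1.86, WDR82 is low with both mimics, and HCFC1, KMT2B, PYGO2 and RNF40 are low with miR-608.

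The named genes whose pattern over the 6 arrays lay closest to that of RBBP5, by the Euclidean distance between log2 values centred on each gene's mean, were S1PR5, EI24, FBXO21, ALDH4A1 and TSPAN7. Their distances were 0.261, 0.298, 0.353, 0.394 and 0.438 log2 units, and Pearson's r with RBBP5 over the same arrays was 0.991 to 0.999. These figures describe 6 arrays in 3 groups that share their control and carry no test. With miR-552-3p against control, EI24 stood at -2.56, FBXO21 at -2.13, ALDH4A1 at -2.25 and TSPAN7 at -2.03, and S1PR5, not detected on the miR-552-3p arrays, was at least 2.92-fold lower. With miR-608 all 5 lay between -0.11 and 0.14.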

How the data were processed

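Signals came from Illumina bead arrays hybridised with biotin-labelled cRNA, per the labels' protocols. The authors deposited, per the file headers, each probe's average signal intensity on a linear scale with its detection p-value, from GenomeStudio 2011.1 per the submitters' processing notes. The sources used here do not give any background subtraction. A second deposited table holds the authors' log2 values for 17751 probes, which equal quantile-normalized log2 signals of the probes detected on at least 4 arrays.

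Signals were background corrected, offset by 16, quantile normalized and set on the log2 scale with neqc (limma 3.58.1, R 4.3.3), with the negative controls inferred from the detection p-values. The offset understates changes of dim probes. Probes detected at p under 0.05 by 2 or more arrays were kept, 20749 in all. One limma model (lmFit, eBayes, 3 residual and 5.18 total degrees of freedom) was fitted to all kept probes and 6 arrays. Two-sided p-values were adjusted by Benjamini-Hochberg across every kept probe, with a threshold of 0.05; SE and intervals come from this fit, which pools the spread over the groups. With 2 arrays against 2, an exact permutation test cannot go below p = 0.333. The number of arrays limits the precision.

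Of the probes, 30112 had 1 gene symbol, 8 several, and 17199 are unnamed here. Gene coordinates are not printed because no build is given for the probes. Where no array of a group detected a probe, its fold is a bound: the mean of the other group over a floor, which is, per array, the lowest value of any detected probe or the probe's own value if that is higher. Every member probe is described, and up to 4 genes per list and comparison with the smallest p could be named. Members, lists and tests were chosen with earlier results of these data known. Alternatives changed the background step, filter, rows, prior, samples or pairing, or left out 1 array. All of them used quantile normalized values, so dependence on the normalization was not tested. Arrays of the same replicate number showed no shared shift: deviations from the group means correlated at -0.00041 to 0.026 for miR-552-3p with the other groups and at -0.022 between miR-608 and control. Whether such arrays were made together is not stated, and these correlations cannot decide it.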

Additional observations from a re-analysis of the deposited data

Results flagged for a closer look

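The mimics were compared with the same control, and at 7 probes of the set their effects differed by the direct test of miR-552-3p minus miR-608 (limma, 2 arrays per group), where 36.5% of all kept probes were called. The members were chosen with these results in view, so nothing is read from the count. The count was 2 or 3 when any 1 array was left out. The differences were -1.27 for ASH2L, 1.05 for SETD1A, 0.99 for the dim DPY30 probe, 0.65 for SETD1B, -0.29 for CXXC1, -0.28 for the bright DPY30 probe and -0.27 for the brightest WDR5 probe. At ASH2L, CXXC1 and the bright WDR5 and DPY30 probes, both miR-552-3p arrays lay below and both miR-608 arrays above both control arrays. Of all kept probes, 67% had no overlap between miR-552-3p and control and 65.7% between miR-608 and control, in either direction. The share of probes with both orders at once was not analysed here, so nothing is read from this order. CXXC1 and the bright WDR5 and DPY30 probes did not pass against control with either mimic (adjusted p of 0.1 to 0.516). At SETD1A both miR-608 arrays lay below all others, and the miR-552-3p and control arrays overlapped. The differences at ASH2L and SETD1A passed under all 15 alternative settings, and the others did not pass in at least 2 of theirs.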

How the results depend on the processing

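Of 15 called values of the set's probes, 4 passed under every alternative: ASH2L with miR-552-3p against control, SETD1A with miR-608 against control, and both in the direct comparison of the mimics. Of 49 called values of the list genes, 21 did. Except for KDM6A with miR-552-3p against control, each of the 49 had one of the 4 smallest p in its list and comparison. The share is therefore over values picked for small p, and not every such gene is named above. The 21 include SETD7 with miR-552-3p against control and between the mimics. SETD7 was kept only through the miR-552-3p arrays, so its calls support nothing. The count of probes called with miR-552-3p against control was 4249 with no detection filter and 3472 to 5668 when single arrays were left out, against 6403. With miR-608 against control it was 3617 and 2664 to 4880, against 5893, and between the mimics 4837 to 6714 with single arrays left out, against 7566. Some settings raised the counts. In the same order of comparisons they were 8069, 7776 and 9116 with an intensity trend, and 7681, 7290 and 8647 with the authors' values. The totals behind these counts differ. The main fit, the left-out arrays and the intensity trend tested 20749 probes, no filter tested 47319, and the authors' values cover 17751. The set's probes called other than RBBP5 numbered 1 with no detection filter, 2 with one probe per gene and 1 to 4 with single arrays left out for miR-552-3p against control. For miR-608 against control they numbered 2 with no filter and 2 to 3 with arrays left out. Between the mimics they numbered 3 with no filter, 3 with only the groups compared, 4 with a replicate block and 2 to 3 with arrays left out. With the authors' values they numbered 5, 6 and 8 in the same order of comparisons, where 7681, 7290 and 8647 of 17751 probes were called. With no filter, 4249, 3617 and 5491 of all 47319 probes were called. The settings tested unlike numbers of probes, so the set's counts are not weighed against each other. The causes were not tested.

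Signs turned only in values that had not passed. With miR-608 against control, the dim WDR5 probe was at 0.0092 with the authors' values and at -0.32 to 0.30 with arrays left out. The dim DPY30 probe ranged from -0.41 to 0.15 when arrays were left out. KMT2C ranged from -0.047 to 0.34 and KDM1A from -0.071 to 0.080. With miR-552-3p against control, KMT2C ranged from -0.37 to 0.015 and SMYD3 from -0.16 to 0.035. Between the mimics, KMT2A ranged from -0.038 to 0.23 and KDM5B from -0.049 to 0.019. With the replicate block 5558, 4843 and 6746 probes were called in the 3 comparisons. As arrays of the same number showed no shared shift, a call lost there was not read as a weaker effect. Probes near background, such as those of KMT2D, allow no statement.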
